A study of Sus scrofa with 8 samples.

Results

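The let-7 and miR-98 family was described in porcine liver from 20 miRNA names of the 888 listed in the small RNA libraries. A name was taken when, without a leading ssc-, it began with let-7 or was miR-98 with or without an arm suffix. The members comprised 9 names of the 5p or main arm (let-7a to let-7g, let-7i and miR-98) and 11 names of the 3p or star arm. All 20 had a value above 0 in every library, and all passed the filter on low values.

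The livers came from 4 Yanan sows with no shared ancestry in recent generations, 2 young (180 days of age) and 2 old (8 years of age). All were fasted overnight and killed by exsanguination after an electric shock. Each liver gave 1 small RNA library and 1 rRNA-depleted RNA library, and both ages were taken from one breed and sex. The paper states that the young sows had never given birth. The old sows had given birth over many years and were removed from breeding. Age and reproductive history therefore cannot be told apart. The tissue is whole liver, so fewer cells of a type and less RNA per cell cannot be told apart.

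The let-7 miRNAs are processed from hairpin precursors by DROSHA and DICER1 and are then loaded into AGO proteins, where the 5p arm pairs through its seed with sites in target mRNAs. Members of the family share that seed, so they can act on overlapping targets, among them MYC and HMGA2 transcripts. The RNA-binding proteins LIN28A and LIN28B block their maturation in embryonic cells. Mature let-7 accumulates in differentiated tissue, adult liver included, while the 3p strand of most let-7 hairpins is degraded.

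In each library the deposited miRNA values were whole multiples of the value of 1 read. With names that hold a copy of another name's reads counted once, these reads summed to between 8715516 and 10438212 per library. Such sums exceed the mapped small RNA reads that the study gives, so they are not sequencing depth, and shares are of summed values. How a read could count under several names is not stated. Values of young 2 were low across the whole table, with a median-of-ratios size factor of 0.778 against 1.17 in young 1, 1.09 in old 1 and 1.04 in old 2. Values are therefore given both as deposited and after division by this size factor, termed scaled values. miR-122, the defining miRNA of hepatocytes, had deposited values of 4583851 and 2604955 in young livers and 3567828 and 4163798 in old livers. Of 8 liver mRNAs, 7 were matched, at 467 to 41068 CPM (reads scaled to a library total that is not stated) over the RNA libraries. Of these, APOC3 and ALB, which encode plasma proteins made by hepatocytes, were lower in both old livers (log2 fold changes -0.60 and -0.69, limma adjusted p = 0.242 and 0.352), and the groups of the other 5 overlapped. Over all 16898 mRNAs tested, both old libraries lay below both young ones for 25% and above them for 24.4%. miR-122-3p had 3559 and 2138 in young livers and 10094 and 8242 in old livers (1.72, limma adjusted p = 0.328). The part of these differences in the let-7 values was not tested.

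The summed family was more abundant in both old livers than in both young livers. Its deposited values summed to 921297 in young 1, 611283 in young 2, 1100893 in old 1 and 1371678 in old 2, which gave an old over young ratio of 1.61. After scaling, the young livers were nearly equal, at 788393 and 785595. The old livers stood above them at 1010566 and 1313922, a ratio of 1.48. With repeated names counted once, the family took 6.62% of the summed miRNA values in young 1, 7.29% in young 2, 9.83% in old 1 and 12.6% in old 2. On this count the mean share was 6.95% ± 0.476 (SD, n = 2) in young livers and 11.2% ± 1.99 (SD, n = 2) in old livers. With all names in the total, the shares were 4.88%, 5.45%, 7.33% and 8.98% in the same order of libraries. These shares were calculated after the values had been seen. With 2 libraries against 2, an exact two-sided permutation test cannot give a p below 0.333, so no test of the sum was made.

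**Figure D1:**
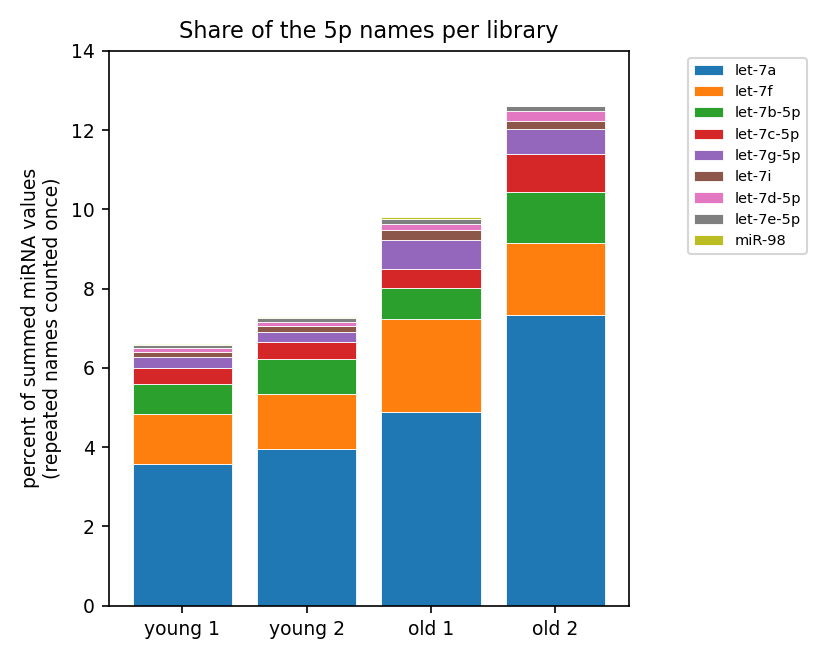
Share of each 5p or main arm name in the summed miRNA values (percent, vertical axis, repeated names counted once) in the 4 small RNA libraries, as stacked bars. The stacks of the young livers reach 6.60% and 7.27%, and those of the old livers 9.80% and 12.6%, with let-7a the broadest band in all 4.

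let-7a was the most abundant member in every library, and its lowest value exceeded the highest value of every other member. Its deposited values were 498791 and 331666 in young livers and 547260 and 795359 in old livers. It made up 54.3%, 54.4%, 49.9% and 58.1% of the summed 5p names in young 1, young 2, old 1 and old 2. By the mean over all libraries the order was let-7a, let-7f, let-7b-5p, let-7c-5p, let-7g-5p, let-7i, let-7d-5p, let-7e-5p and miR-98. Between neighbours in this order, the ranges over the 4 libraries were separate for let-7a above let-7f and for let-7e-5p above miR-98. The other 6 pairs of neighbours overlapped in range, although let-7f exceeded let-7b-5p, let-7b-5p exceeded let-7c-5p and let-7g-5p exceeded let-7i in all 4 libraries. The remaining 3 pairs kept their order in 3 of 4 libraries. These levels carry no length correction. How a read that fits several of these names was counted is not stated, so the order may depend on that counting.

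**Figure D2:**
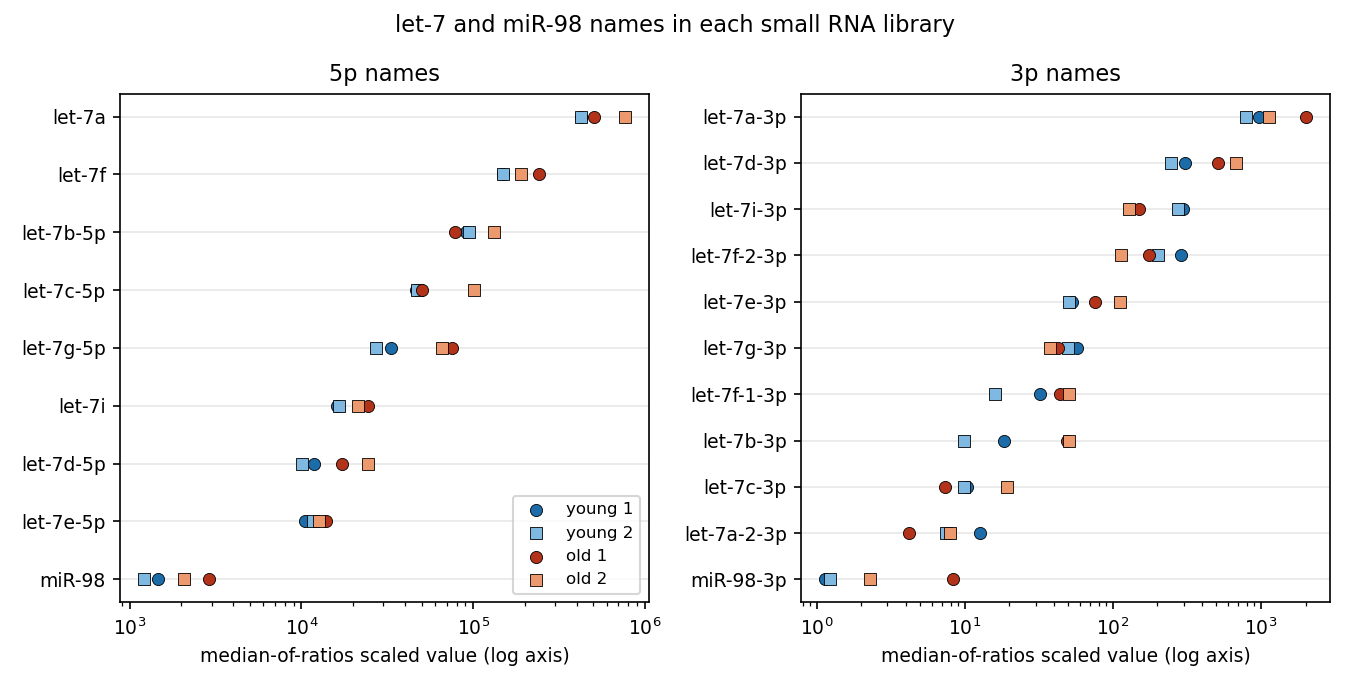
Scaled value of each name in each library (log axis, median-of-ratios scaling), with 5p or main arm names on the left and 3p names on the right; blue marks are young livers and red marks are old livers. For let-7g-5p the old livers (75499 and 65844) stand apart from the young (33332 and 27181), and for let-7i-3p they stand below.

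Among the abundant 5p names, let-7g-5p, a single-gene member, differed most between ages. Its deposited values were 38951 in young 1, 21150 in young 2, 82247 in old 1 and 68739 in old 2. Both old livers lay above both young livers, with means of 30050 ± 12587 (SD, n = 2) and 75493 ± 9552 (SD, n = 2). The log2 fold change on the log2(value + 1) scale was 1.39 (SE 0.62, limma adjusted p = 0.437 over 867 names), and 1.23 after scaling (SE 0.38, limma adjusted p = 0.304). On whole reads, DESeq2 called it (log2 fold change 1.22, adjusted p = 0.0222), while the exact test (1.18, adjusted p = 0.0783) and the quasi-likelihood test (adjusted p = 0.197) of edgeR did not.

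let-7d-5p and miR-98 followed, each at about the same fold. let-7d-5p had 13883 and 7882 in young livers and 18691 and 25371 in old livers (log2 fold change 1.06, SE 0.62, limma adjusted p = 0.566). miR-98, the least abundant 5p name, had 1701 and 948 in young livers and 3176 and 2157 in old livers (1.04, SE 0.63, limma adjusted p = 0.580). In both, the lower old value exceeded the higher young value, and neither passed the adjusted threshold.

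let-7a, let-7f, let-7c-5p and let-7i formed a middle group. let-7f had 173858 and 115727 in young livers and 264316 and 198453 in old livers, and let-7i had 18858 and 12820 against 26436 and 22216. The values of let-7c-5p were 54198 and 36781 in young livers and 54478 and 106063 in old livers, so that old 1 barely passed young 1. Their log2 fold changes lay between 0.64 and 0.77, with that of let-7a at 0.70, and the limma standard errors were 0.60 to 0.64. For each of these 4 names the groups did not overlap, and the change was close in size to its standard error.

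The smallest changes among the 5p names were those of let-7e-5p and let-7b-5p. let-7e-5p had 12186 and 9121 in young livers and 15107 and 13260 in old livers (log2 fold change 0.42, SE 0.59, limma adjusted p = 0.824). let-7b-5p had 106477 and 73895 in young livers and 85830 and 137625 in old livers (0.29, SE 0.62, limma adjusted p = 0.882). It was the one 5p name whose groups overlapped, and without old 2 its log2 fold change was -0.047.

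Of the 20 names, 16 had a higher mean and 4 a lower mean in old livers, against 506 and 361 of all 867 names tested. After scaling, 16 were again higher and 4 lower, against 444 and 423 of all names. Both old libraries lay above both young ones for 14 names, against 28.3% of all 867 names tested, and below them for 1 name (let-7i-3p), against 16.1% of all names. After scaling the counts were 14 names above, against 23.5%, and 3 below, against 27.1%. The median log2 fold change was 0.73 over the members and 0.18 over all names on deposited values, and 0.57 and 0.036 after scaling, so scaling lowered the median of all names by more than 0.1 and that of the members with it. Among the 5p names alone, 8 of 9 lay above, with a median of 0.70. The members share libraries, and how reads that fit several near-identical names were counted is not stated, so the names are not independent of each other.

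No member was called by limma (adjusted p under 0.05, log2 fold change beyond 1 in either direction), and neither was any other miRNA (0% of 867). At an unadjusted p under 0.05, limma on deposited values found 1 member higher (let-7b-3p) and 0 lower, against 72 names (8.3%) higher and 31 names (3.58%) lower over the table. After scaling it found 3 members higher (let-7b-3p, let-7g-5p and let-7d-3p) and 1 lower (let-7i-3p), against 8.07% and 6.69% of all names. The exact test of edgeR called 26 names (3%), DESeq2 43 names (4.96%) and the quasi-likelihood test of edgeR 0 names, with 65 higher and 57 lower at an unadjusted p under 0.05. let-7g-5p with DESeq2 was the single member among these calls.

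**Figure D3:**
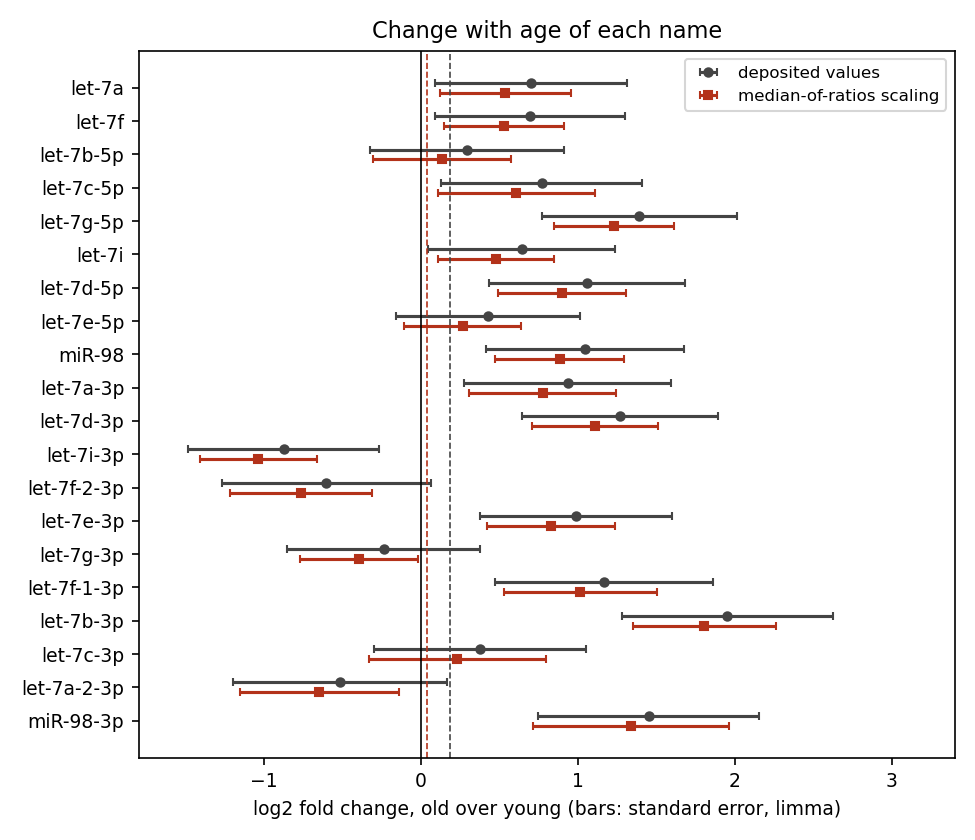
Log2 fold change of each name, old over young (horizontal axis), with limma standard errors as bars, on deposited values (grey circles) and after median-of-ratios scaling (red squares); dashed lines are the medians of all 867 names, 0.18 and 0.036. All 9 5p names lie right of 0, and of the 3p names let-7i-3p, let-7f-2-3p, let-7g-3p and let-7a-2-3p lie left of it.

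The old livers differed from each other in their mixture of 5p names. let-7a, let-7b-5p, let-7c-5p and let-7d-5p were higher in old 2 than in old 1, and let-7e-5p, let-7f, let-7g-5p, let-7i and miR-98 were higher in old 1. The first set summed to 673349 and 450225 in young livers, 706259 in old 1 and 1064418 in old 2. It took 73.3% and 73.8% of the 5p family in young livers, 64.3% in old 1 and 77.7% in old 2. This grouping was read from the values of the old livers, and it is given as a description with no test.

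Shares and ratios of single names restate this contrast, since the sets were read from the same values. let-7f took 18.9% and 19.0% of the 5p family in young livers, 24.1% in old 1 and 14.5% in old 2. The ratio of let-7c-5p to let-7f was 0.312 and 0.318 in young livers, 0.206 in old 1 and 0.534 in old 2. The young livers were nearly equal on scaled values for let-7a (426836 and 426243), let-7f (148778 and 148728) and let-7c-5p (46380 and 47270). Both old livers lay above both young livers for each of these names, but far apart from each other. In old 1 and old 2 the scaled values were 502358 and 761869 for let-7a, 242629 and 190097 for let-7f, and 50008 and 101597 for let-7c-5p. let-7g-5p (4.24%, 3.47%, 7.49% and 5.02% of the 5p family) and let-7d-5p (1.51%, 1.29%, 1.70% and 1.85%) were the names whose share was higher in both old livers than in both young livers. let-7b-5p had a lower share in both old livers, at 7.82% and 10.1% against 11.6% and 12.1%.

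The 3p names were rare. Together they amounted to 0.261% and 0.212% of the 5p family in young livers and 0.305% and 0.178% in old livers. let-7a-3p, the most abundant, had 1139 and 618 in young livers and 2185 and 1177 in old livers. let-7d-3p had 359 and 191 in young livers and 562 and 712 in old livers (log2 fold change 1.27, SE 0.63, limma adjusted p = 0.475). Both names had higher values in both old livers, as their 5p partners did.

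let-7b-3p had the largest log2 fold change of the members in limma, from few reads. Its deposited values were 21.3 and 7.70 in young livers and 53.4 and 52.3 in old livers, from 16, 8, 47 and 44 reads (log2 fold change 1.95, SE 0.67, limma adjusted p = 0.309). let-7f-1-3p (37.4, 12.5, 47.8 and 52.3 in young 1, young 2, old 1 and old 2) and let-7e-3p (61.4, 39.4, 83.0 and 117) also lay higher in both old livers. let-7c-3p had 12.0 and 7.70 in young livers and 7.96 and 20.2 in old livers, and its groups overlapped.

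let-7i-3p was the member with lower deposited values in both old livers. Its values were 346 in young 1, 215 in young 2, 163 in old 1 and 134 in old 2 (log2 fold change -0.88, SE 0.61, limma adjusted p = 0.603). After scaling they were 296, 276, 149 and 129 (-1.04, SE 0.37, limma adjusted p = 0.330), so the young livers were close to each other and both lay above the old livers. let-7f-2-3p (336 and 156 in young livers, 190 and 119 in old livers) and let-7g-3p (66.7 and 38.5, 46.6 and 39.2) overlapped between groups as deposited, and both lay lower in both old livers after scaling. The members with a mean under 10 were let-7a-2-3p, which ranged from 4.55 to 14.7, and miR-98-3p, which ranged from 0.962 to 9.10. miR-98-3p rested on 2 reads in the young and 10 in the old libraries, 8 of them in old 1 and 2 in old 2. The pooled ratio was 5.20 with a 95% counting interval of 1.11 to 48.8. This interval leaves out the difference between the old livers.

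Comparing the 5p and the 3p name of a miRNA within a library removes the library's scale. This comparison was added after the values had been seen, over 109 pairs of arms matched by name, both at a mean value of at least 10. The ratio of let-7g-5p to let-7g-3p was 584 in young 1, 550 in young 2, 1764 in old 1 and 1751 in old 2. It rose 3.10-fold (log2 difference 1.63, SE 0.15, limma adjusted p = 0.0377), and the values within each age were close to each other. The 3p arm gave 50, 40, 41 and 33 reads, and counting alone would give a standard error of 0.228 on the log2 difference, more than the 0.15 of the fit.

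The let-7i pair showed a change of like size. The ratio of let-7i to let-7i-3p was 54.6 and 59.7 in young livers and 163 and 165 in old livers, a 2.87-fold rise (log2 difference 1.52, SE 0.16, limma adjusted p = 0.0377). Its 3p arm held 259, 223, 143 and 113 reads, with a counting standard error of 0.113. For let-7g the 5p values were higher in old livers and the 3p values overlapped as deposited, and for let-7i the 5p values were higher and the 3p values lower. Of the 109 pairs, 5 (4.59%) passed the same thresholds, let-7g and let-7i among them. For both pairs the adjusted p was 0.281 without young 1, 0.303 without young 2, 0.0725 without old 2 and 0.0302 without old 1, while the log2 differences stayed between 1.46 and 1.68.

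The other pairs had other patterns. The let-7b ratio was lower in old livers, at 1606 and 2630 against 4989 and 9601 in young livers (log2 difference -1.75, SE 0.49, limma adjusted p = 0.138). The let-7d ratio was 38.7 and 41.2 in young livers and 33.3 and 35.6 in old livers (-0.21, SE 0.16, limma adjusted p = 0.466). For let-7a (438, 537, 250 and 675), whose 5p name can come from more than 1 hairpin while its star names are listed apart, let-7c (4514, 4779, 6845 and 5246) and let-7e (199, 231, 182 and 114) the adjusted p lay between 0.339 and 0.822. Over all pairs the ratio was of the more to the less abundant arm, which was the 5p arm in the 7 let-7 pairs. Both old ratios lay above both young ratios in 29.4% of the pairs and below in 28.4%. Among the 7 let-7 pairs the ratios were above for let-7c, let-7g and let-7i and below for let-7b, let-7d and let-7e.

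**Figure D4:**
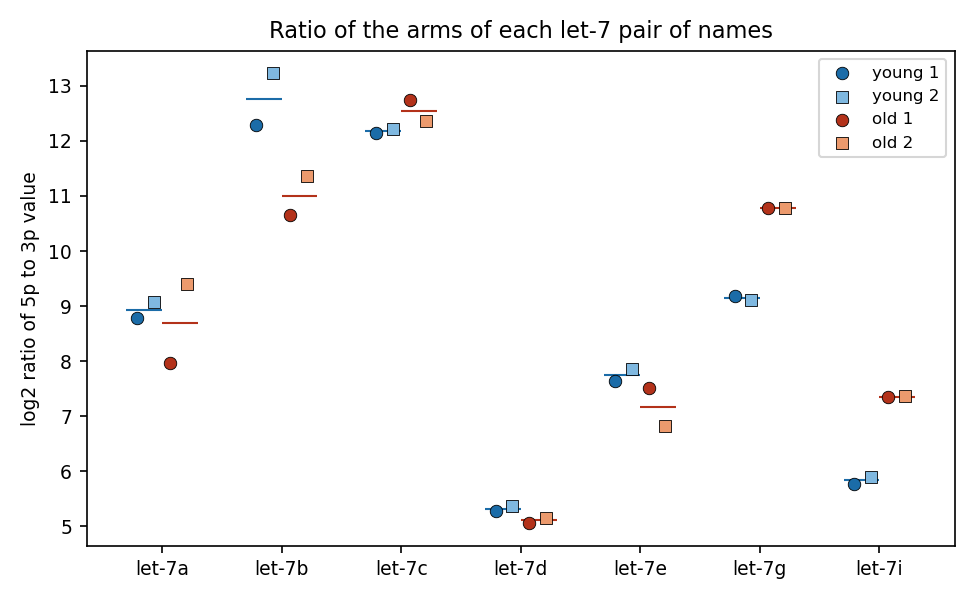
Log2 ratio of the 5p to the 3p value (vertical axis) for the 7 let-7 pairs of arms matched by name; marks are libraries and short lines are the means of each age. let-7g moves from 9.15 in young to 10.78 in old livers and let-7i from 5.84 to 7.36, with the libraries of each age close together, while those of let-7a lie on both sides of the young values.

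let-7f comes from 2 hairpins whose 5p arms share a name and whose 3p arms do not. The ratio of let-7f-1-3p to let-7f-2-3p was 0.111 and 0.0802 in young livers and 0.251 and 0.440 in old livers. The old livers thus held relatively more of the let-7f-1 star arm, from let-7f-1-3p values that were higher and let-7f-2-3p values that were lower after scaling. let-7f-1-3p rested on 28, 13, 42 and 44 reads in young 1, young 2, old 1 and old 2, and this ratio was not tested. miR-98-3p, the star arm of the neighbouring hairpin, is too rare to compare.

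Several let-7 genes are clustered. In the RefSeq annotation of Sscrofa11.1, used for neighbours only, MIRLET7F-1 and MIR98 lie within HUWE1, a ubiquitin ligase gene, and MIRLET7G lies within WDR82. MIRLET7A-2, MIRLET7F-2 and MIRLET7D lie within 100 kb of each other. MIRLET7A-1 has MIR125B-1 and MIR100 as neighbours, MIRLET7C has MIR99A, MIRLET7E has MIR125A and MIR99B, and MIRLET7I has no miRNA gene within that distance.

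The cluster partners were uneven in their values. miR-125b-5p, which MIR125B-1 can give, had 341904 and 254594 in young livers, 352769 in old 1 and 640804 in old 2, and miR-100 had 17714 and 14394 against 19919 and 29277. miR-125a, the partner of let-7e, had 9466 and 7326 in young livers and 16418 and 26690 in old livers (log2 fold change 1.33, limma adjusted p = 0.437), and miR-99b had 1309 and 1012 against 2021 and 3064. Both were higher in old 2 than in old 1, whereas let-7e-5p was not. miR-99a, the partner of let-7c, had 275369 and 170907 in young livers and 181587 and 241991 in old livers, so that its groups overlapped.

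Outside the family, the 5 names with the pattern most like the summed 5p family were found by Euclidean distance between centred log2(value + 1) values over the 4 libraries, among 538 names with a mean of at least 10. They were miR-190a (distance 0.0978), miR-429 (0.122), miR-25-3p (0.155), miR-22-5p (0.226) and miR-205-5p (0.232). miR-25-3p, the most abundant of these, had 19694 and 13562 in young livers and 21504 and 27055 in old livers. Each of the 5 was lowest in young 2 and highest in old 2, as the family was. With 4 points and a library scale that all names share, the likeness is a description.

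Markers of other cell types also differed between libraries. The skeletal muscle miRNAs (8 names, 1 of them at 0 in some library) summed to between 1326 and 2413 in young livers. In old livers they summed to 5433 and 10096. Both old livers lay above both young livers for 5 of 8 names and below for 0. Of all names, 28.3% lay above and 16.1% below. Of the 5 muscle names above, 2 are miR-1-3p and ssc-miR-1. Their reads kept a ratio of 1.96 to 1.99, so these 2 names are not independent, and both enter the sum. The white blood cell miRNAs (7 names, none at 0) summed to between 21358 and 27701 in young livers, 55761 in old 1 and 28478 in old 2, with 3 of 7 names above and 1 below. The epithelial miRNAs (7 names, none at 0) summed to between 5567 and 8764 in young livers, 8474 in old 1 and 17548 in old 2, with 3 of 7 names above and 0 below. The endothelial miR-126 names (2 names, none at 0) summed to between 64613 and 125313 in young livers, 187525 in old 1 and 94579 in old 2, with 0 names above or below. The stromal miRNAs (10 names, none at 0, 1 above and 3 below) ranged from 552143 to 762741 in young livers. In old livers they ranged from 614763 to 769654. Among them, miR-199a-3p (159955 and 113167 in young livers, 218673 and 142440 in old livers) moved together with miR-199b-3p (79909 and 56539, 109156 and 71115). The red cell miRNAs (4 names, none at 0, 0 above or below) ranged from 23724 to 53347 in young livers and from 18581 to 33190 in old livers. The sums of white blood cell and endothelial miRNAs were thus highest in old 1, and those of muscle and epithelial miRNAs in old 2, as deposited and after scaling. The stromal sum was also highest in old 1 as deposited (769654, against 762741 in young 1), but in young 2 after scaling (709592). Not every name followed its sum, miR-150-5p and miR-499-5p among those that did not. The let-7 sets were read from the same old livers, so any sum that differs between these livers must match 1 set. The part of the marker differences in the let-7 values was not tested.

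From lists of let-7 maturation factors and let-7 targets, 48 genes were read from the RNA libraries, of which 30 had a matched identifier and 26 were tested. Values are CPM that carry no gene length, so each gene is compared with itself only. Of the 26, 13 had a higher and 13 a lower mean log2 value in old livers, against 7956 and 8942 of all mRNAs tested. At an unadjusted p under 0.05 KHSRP, MYC and ARID3B were higher in limma, 3 of the 26, where 6.78% of the 16898 mRNAs tested were higher and 8.93% lower. Both old libraries lay above both young ones for 6, against 24.4% of all mRNAs, and below for 6, against 25%. The median log2 fold change was -0.027, against -0.023 over all mRNAs. None was called by limma after adjustment (0% of all mRNAs, with 1145 higher and 1509 lower at an unadjusted p under 0.05). The exact test of edgeR called none of them either, against 3.16% of all mRNAs (457 higher and 77 lower). Nor did its quasi-likelihood test (0 mRNAs called, with 1954 higher and 520 lower at an unadjusted p under 0.05). More mRNAs had a value above 0 in old 1 (17262) and old 2 (16978) than in young 1 (15230) and young 2 (14291).

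Among the maturation factors, KHSRP, an RNA-binding protein that favours let-7 processing, differed most. Its CPM was 1.83 and 1.05 in young livers and 4.03 and 3.65 in old livers (log2 fold change 1.01, SE 0.22, limma adjusted p = 0.242). AGO2, the slicing Argonaute, had 2.10 and 2.28 in young livers, 6.40 in old 1 and 2.69 in old 2 (0.71, SE 0.41, limma adjusted p = 0.507). DICER1, which cuts the precursor, had 1.86 and 1.55 in young livers and 0.926 and 1.46 in old livers (-0.31, SE 0.19, limma adjusted p = 0.525). Over the 11 maturation genes tested, both old livers lay above both young livers for 2 (KHSRP and AGO2) and below for 4 (DICER1, HNRNPA1, XPO5 and ZCCHC11, the last 3 named after their values were seen), against the 24.4% and 25% of all mRNAs. LIN28A was listed at 0 in young 1, young 2 and old 2 and at 0.244 CPM, from 15 reads, in old 1, where a count of 0 allows up to 3 reads. LIN28B had no matched identifier and was not analysed here.

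Among the targets, MYC, a growth-promoting transcription factor, was higher in both old livers, at 0.653 and 0 in young livers and 2.78 and 6.54 in old livers (log2 fold change 2.05, SE 0.49, limma adjusted p = 0.255). ARID3B, a DNA-binding protein, was also higher in both old livers, at 0.601 and 0.794 against 0.207 and 0.069 (0.58, SE 0.14, limma adjusted p = 0.258). On reads, the exact test of edgeR fitted log2 fold changes of 4.06 for MYC (adjusted p = 0.425) and 2.53 for ARID3B (adjusted p = 0.331), since log2(CPM + 1) understates the change of low values. Of the oncofetal targets, IGF2BP1 had 0.033 in young 1 and 0 in the others, and IGF2BP2 had 1.83 and 0.035 in young livers and 0.341 and 0.529 in old livers. HMGA2 and IGF2BP3 had no matched identifier and were not analysed here.

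**Figure D5:**
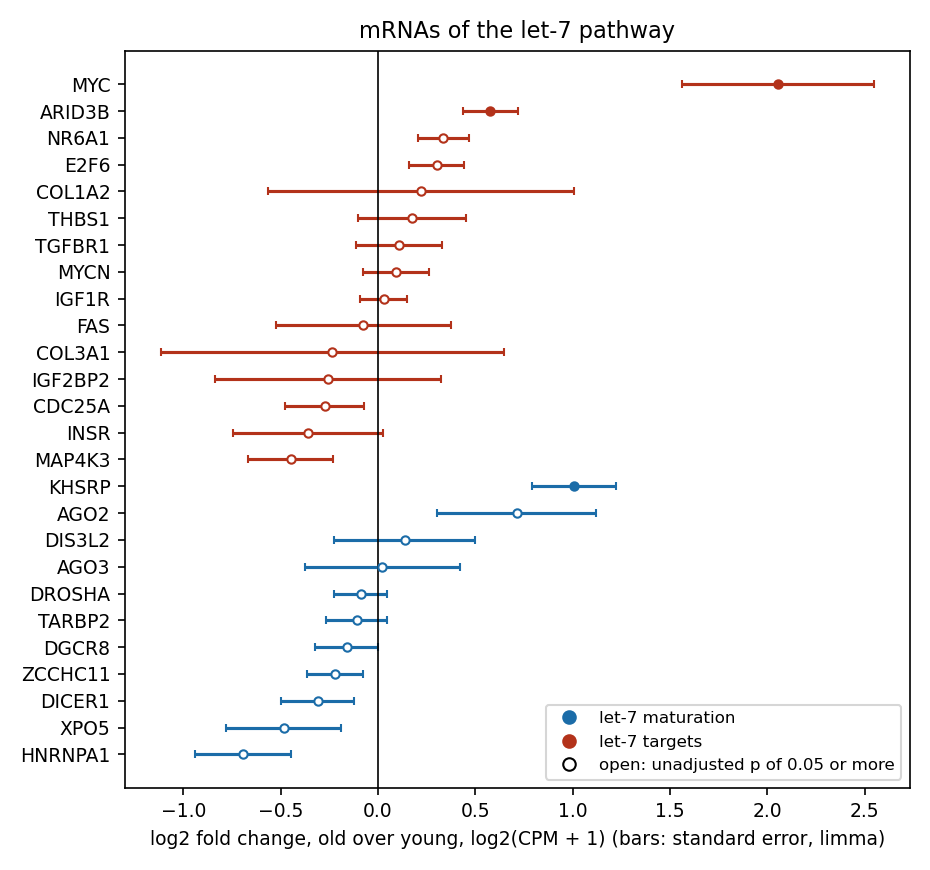
Log2 fold change, old over young, on log2(CPM + 1) (horizontal axis) with limma standard errors as bars, for the 11 maturation genes (blue) and 15 target genes (red) plotted; filled marks have an unadjusted p under 0.05 and none passed after adjustment. MYC, at 2.05, lies furthest right, with KHSRP at 1.01 next, and most of the other intervals lie near 0; NR6A1 had no reads in either young liver.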

How the data were processed

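The signal values of miRNAs were deposited by the authors, who matched small RNA reads to miRBase21 with mirdeep2 and name the values TPM. They sum to between 11220895 and 18862240 per library, and the total they were scaled to is not given in the sources used here. The CPM values of mRNAs were made by the authors with TopHat2 2.0.14 on Sscrofa10.2, StringTie 1.2.3 and Salmon 0.6.0, and are also named TPM. In both tables the values were whole multiples of 1 step per library, within 0.05 read for 100% of values, so whole reads were recovered by division and rounding. Recovered reads over the listed mRNAs summed to between 22482241 and 37555696 per library, which is not the sequencing depth. How reads that fit several miRNA names were counted is not stated. miR-1-3p held 1.96 to 1.99 times the reads of ssc-miR-1, and 5 names in the table repeated another name. No member repeated another.

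Libraries were grouped by the age in their labels, and replicates were not pooled. limma 3.58.1 (R 4.3.3) was run on log2(value + 1) over all names above 0 in at least 2 of 4 libraries, with Benjamini-Hochberg adjustment over all of them. Calls needed an adjusted p under 0.05 and an absolute log2 fold change above 1, a scale that understates the change of low values. edgeR 4.0.16 and DESeq2 1.42.0 were run on whole reads, and adjusted values that DESeq2 left out stay left out. The arm ratios were log2 ratios of the more to the less abundant arm, tested with limma over 109 pairs of arms matched by name. The fits and the recovery of reads were tested on simulated data. Tables and plots were made in Python 3.11.15 (matplotlib 3.10.9, scipy 1.17.1, pandas 2.3.3 and numpy 2.4.6).

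All members were named, in full at a mean of at least 10. Of the pathway list, LIN28A, LIN28B, HMGA2, IGF2BP1 to IGF2BP3, DICER1, AGO2 and genes at an unadjusted p under 0.05 were named. NR6A1 was named after its values were seen. 1 target of the list is not reported here, so the counts, median and balance of directions of that list are incomplete. The members, lists and markers were chosen with earlier results of these data known. Of 21607 mRNA identifiers, 11654 had a symbol. Same-numbered young and old libraries did not deviate together (r = -0.016 over miRNAs and 0.090 over mRNAs). lncRNAs and circRNAs were not used here. Intervals cover counting error only and take each recovered read as counted once.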

Additional observations from a re-analysis of the deposited data

How the results depend on the processing

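The 20 members kept the sign of their log2 fold change under each of the 12 settings other than leaving out a library in which they were tested (18 of them with a mean of at least 10), and 16 kept it when any 1 library was left out. The exceptions were let-7g-3p (-0.63 to 0.15 over the libraries left out) and let-7a-2-3p (-1.12 to 0.087), which turned without young 1, and let-7c-3p (-0.25 to 0.996) and let-7b-5p (-0.047 to 0.63), which turned without old 2. Where limma called 0 miRNAs, it called 16 with a mean of at least 10 and 7 with a mean-variance trend, and the exact test of edgeR called 26 and DESeq2 43. Leaving out 1 library gave 0 to 36 calls, with 22 without old 1 and 36 without old 2, and 0 of the members among them. DESeq2 called 1 member, let-7g-5p, and the other settings 0. Where limma called 0 mRNAs, it called 2 with a mean of at least 1, and the exact test 534. The cause of these differences was not tested. The let-7 pathway mRNAs had 0 calls under every setting run. The log2 ratio of the summed family was 0.69 as deposited, 0.56 after scaling and between 0.42 and 1.02 with 1 library left out.

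With the replicate number as a block, limma called 0 miRNAs and 0 mRNAs, and the arm ratios of let-7g and let-7i had an adjusted p of 0.153. The numbers name libraries and pair no animals. With 2 libraries per age, standard errors of 0.59 to 0.71 on the members' log2 fold changes, or 0.37 to 0.62 after scaling, limit what can be called, and 3p names with under 50 reads are also limited by counting.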
